A study of Mus musculus with 6 samples.

Results

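Neural stem cells and astrocytes share a set of marker genes that glioma cells often keep, and 10 of them are described here: Sox2, Sox9, Nes, Vim, Gfap, Prom1, Cd44, Fabp7, Msi1 and Bmi1. They were found by gene name among the 58210 genes of the transcript files, and all 10 were present. The cells were GL261, a mouse glioma line grown in culture and treated for 4 h with 1 uM sodium chloride, the control salt, or 1 uM sodium propionate, the salt of a short-chain fatty acid. The dose is printed as the labels give it, and its unit could not be checked against the files. There are 3 libraries per salt, made from total RNA and numbered by the labels as chloride 1, 2 and 3 and propionate 1, 4 and 5, and the study asked which transcripts change after propionate. The cells are 1 tumour line without the stroma of a tumour. The labels do not say whether libraries stem from separate cultures; p-values then measure only the spread between these libraries, which may be technical.

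Sox2 and Sox9 are transcription factors of the SRY box family that act in neural progenitors and in the switch to glial fate. Nestin (Nes), vimentin (Vim) and glial fibrillary acidic protein (Gfap) are intermediate filament proteins: neural progenitors carry mainly nestin and vimentin, and mature astrocytes carry mainly Gfap. Prom1 encodes prominin 1, a membrane protein used to sort stem-like tumour cells, and Cd44 encodes the main cell surface receptor for hyaluronan. Fabp7 encodes the brain fatty acid binding protein of radial glia, Msi1 an RNA-binding protein of neural progenitors, and Bmi1 a subunit of Polycomb repressive complex 1, which silences genes through chromatin.

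StringTie, the program that made the files, divided the reads over 157296 transcript models, of which 142491 came from a reference annotation and 14805 were assembled from reads. Levels are in TPM, a share of all transcripts that is corrected for transcript length and can be compared between genes, scaled so that the median gene matches between libraries. The bases counted by StringTie came to 9.15 to 9.47 Gb in the 3 chloride libraries and in propionate 1, and to 11.3 and 11.1 Gb in propionate 4 and 5. Chloride 3 and propionate 1 had 71418 and 71165 models with coverage, against 81155 to 82347 in the other 4 libraries, so each salt holds 1 such library. Differences were tested with limma on log2(TPM + 1), adjusted over the 15506 genes that reached 1 TPM on average, and a gene was called at an adjusted p under 0.05. On this scale, changes of low genes are understated.

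The 10 genes lie on 5 chromosomes of mm10. Bmi1 (chr2:18677018-18686629), Vim (chr2:13573927-13582826), Sox2 (chr3:34650405-34652461), Nes (chr3:87971078-87980451), Msi1 (chr5:115429599-115455698), Fabp7 (chr10:57784881-57788450) and Sox9 (chr11:112782224-112787760) are on the plus strand. Cd44 (chr2:102811141-102901665), Prom1 (chr5:43993620-44102032) and Gfap (chr11:102887336-102900912) are on the minus strand.

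Several stretches of DNA carry the features on which the models of these genes turn, and they are shown here for reference beside the values. The first is the promoter of Sox2 before the point where its assembled model begins, chr3:34649745-34649894, plus strand, with GGGCGG on either strand in capitals.
Sox2 promoter: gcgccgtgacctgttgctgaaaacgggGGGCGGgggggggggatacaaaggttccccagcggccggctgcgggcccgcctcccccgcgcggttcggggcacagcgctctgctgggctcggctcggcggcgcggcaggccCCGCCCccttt
The next is the TATA box of Vim, chr2:13574273-13574302, plus strand, in capitals, whose first base lies 32 bases before the RefSeq start of the gene and inside the first exon of its reference model ENSMUST00000028062.
Vim TATA box: cagtgtTATAAAagcagcgcccttggcgtt
After it comes a set of 3 adjacent units of 132 bases in the coding part of the long last exon of Nes, chr3:87976581-87976712, chr3:87976713-87976844 and chr3:87976845-87976976, plus strand. The bases that some models skip lie within units 1 and 2, and no model skips bases of unit 3. Capitals mark the bases that differ from unit 2.
Nes unit 1: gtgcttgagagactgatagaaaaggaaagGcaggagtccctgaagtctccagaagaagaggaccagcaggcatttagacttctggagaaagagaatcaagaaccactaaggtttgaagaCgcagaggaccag
Nes unit 2: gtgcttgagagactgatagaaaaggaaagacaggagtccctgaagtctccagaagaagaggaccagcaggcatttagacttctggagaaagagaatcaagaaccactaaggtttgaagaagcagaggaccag
Nes unit 3: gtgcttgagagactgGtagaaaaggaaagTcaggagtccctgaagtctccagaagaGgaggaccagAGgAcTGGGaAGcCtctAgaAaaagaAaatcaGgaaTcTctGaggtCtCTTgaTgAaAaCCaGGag
The last is the junction of exons 5 and 16 of Cd44, minus strand, with 20 bases from each side and the downstream exon in capitals, which marks the standard form of Cd44 without variable exons.
Cd44 standard junction: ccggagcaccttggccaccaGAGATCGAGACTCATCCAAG
The promoter and TATA box sequences are from RefSeq on GRCm38.p6, the patched form of mm10, and the Nes and Cd44 sequences are from GENCODE M21.

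GL261 had vimentin, nestin, Cd44, Sox2 and Bmi1 above most genes tested, Msi1, Fabp7 and Gfap at low levels, and next to no Prom1 or Sox9. None of the 7 members that could be tested was called different between the salts by limma, none had an unadjusted p under 0.05, and the libraries of the salts overlapped for each of the 7. Limma voom on estimated read numbers called none either. Over all genes tested, limma called 0.00645% higher after propionate (1 gene, Gm17201) and 0% lower, 5.13% had an unadjusted p under 0.05 (2.16% higher and 2.97% lower), and 11.7% had salts that did not overlap (5.25% higher and 6.47% lower). The absence of calls among the members is thus what nearly all genes showed. In bulk RNA such as this, fewer cells with a transcript and less of it per cell cannot be told apart.

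**Figure D1:**
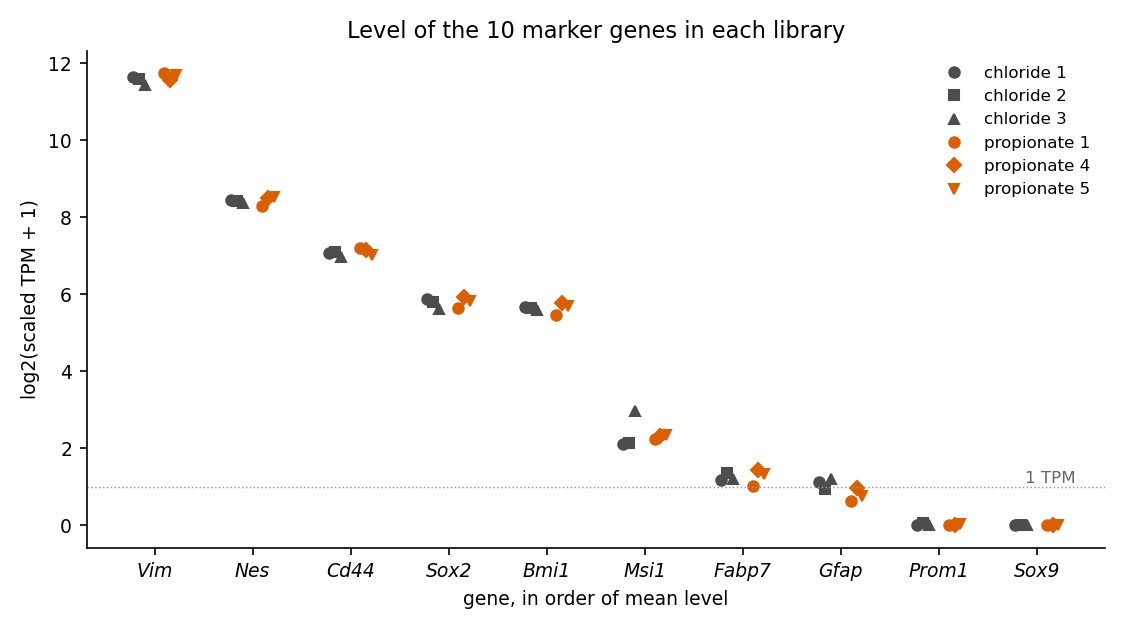
Level of each of the 10 genes as log2(scaled TPM + 1) on the vertical axis, with 1 point per library, chloride in grey and propionate in orange, and a dotted line at 1 TPM. The genes span from Vim, at 2764 to 3402 TPM, to Sox9, listed at 0 in 5 of 6 libraries, while the points of the 2 salts lie close together for each gene, apart from Msi1 in chloride 3.

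Among the intermediate filament genes, Vim had the highest level. With chloride, libraries 1, 2 and 3 had 3164.5, 3065 and 2764 scaled TPM, and with propionate, libraries 1, 4 and 5 had 3402, 3010.2 and 3325; values below keep this order. The lowest library was a chloride library and the highest a propionate library, but propionate 4 lay below chloride 1 and 2. The log2 difference, propionate minus chloride, was 0.11 (SE 0.09, 95% interval -0.10 to 0.33, adjusted p = 0.926). Vim stood at the 99.9th percentile of the genes tested.

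Nes had 346, 341 and 329 scaled TPM with chloride and 314, 359.9 and 369.8 with propionate. Propionate 1 was the lowest of the 6 and propionate 4 and 5 the highest, so the propionate libraries lay on both sides of the chloride range. Its log2 difference was 0.04 (SE 0.08, 95% interval -0.14 to 0.21, adjusted p = 0.962). Per length, the mean level of Vim was 9.09 times that of Nes.

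Gfap, the filament protein of mature astrocytes, was near the limit of what was measured. Its levels were 1.19, 0.915 and 1.31 scaled TPM with chloride and 0.547, 0.939 and 0.705 with propionate, from an estimated 41.1 to 62.4 reads per library. The means were 1.14 ± 0.201 and 0.731 ± 0.197 (SD, n = 3 each), and propionate 4 lay above chloride 2. With an overall mean under 1 TPM, Gfap was outside the genes tested. In the limma fit with no filter on low values, over 31174 genes, its log2 difference was -0.31 (SE 0.14, 95% interval -0.65 to 0.04, adjusted p = 0.888).

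That difference lay in a short model that codes for no protein. ENSMUST00000127909, a processed transcript of 356 bases, was listed at 0.840, 0.507 and 1.11 TPM with chloride and 0, 0.639 and 0.338 with propionate. The 9-exon coding model ENSMUST00000067444 was listed at 0.304, 0.407 and 0.202 with chloride and 0.322, 0.300 and 0.338 with propionate. The other coding model, ENSMUST00000077902, was listed at 0.0413, 0 and 0 with chloride and 0.225, 0 and 0.0301 with propionate. Summed, the 2 coding models were at 0.346, 0.407 and 0.202 with chloride and 0.547, 0.300 and 0.368 with propionate, so that propionate 1 was the highest for coding models and at 0 for the short one. The coding models overlapped between the salts, and the lower Gfap sum after propionate was not seen in them.

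Of the SRY box factors, Sox2 was present and Sox9 was not detected at this depth. Sox2 measured 57.2, 54.7 and 48.0 scaled TPM with chloride and 48.9, 59.9 and 55.6 with propionate. The lowest values were those of chloride 3 and propionate 1, the libraries with fewer covered models, and their part in this order was not tested. The log2 difference was 0.04 (SE 0.10, 95% interval -0.19 to 0.27, adjusted p = 0.968). Sox9 was listed at 0 in 5 libraries and at 0.0108 TPM in chloride 2, an estimated 1.99 reads.

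The surface molecules split in the same way. Cd44 had 133, 135 and 123 scaled TPM with chloride and 145, 139 and 129 with propionate. The 2 highest libraries were propionate libraries, but propionate 5 lay below chloride 1 and 2. For Cd44 the log2 difference was 0.08 (SE 0.07, 95% interval -0.08 to 0.24, adjusted p = 0.930). Prom1 was listed at 0 in chloride 3 and propionate 1 and 4, and at 0.0107, 0.0427 and 0.0166 TPM in chloride 1, chloride 2 and propionate 5, from at most an estimated 7.80 reads.

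Bmi1, the chromatin regulator, was at a level like that of Sox2. It had 50.2, 48.9 and 47.0 scaled TPM with chloride and 43.1, 53.2 and 50.7 with propionate. The chloride libraries lay inside the propionate range. The log2 difference was 0.0040 (SE 0.09, 95% interval -0.20 to 0.21, adjusted p = 0.997).

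Msi1 and Fabp7 were low. Msi1 had 3.31, 3.37 and 6.86 scaled TPM with chloride and 3.72, 3.96 and 4.07 with propionate. Chloride 3 stood apart, and the propionate values lay between it and the other two. The log2 difference was -0.11 (SE 0.23, 95% interval -0.66 to 0.45, adjusted p = 0.964), and without chloride 3 it was 0.18. In chloride 3, 3.63 TPM came from the 875-base coding model ENSMUST00000131079, which was at 0.258 to 0.714 in the other libraries, while the 15-exon model ENSMUST00000150779 was at 1.17 in chloride 3 and at 1.12 to 2.63 in the others.

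Fabp7 had 1.27, 1.57 and 1.29 scaled TPM with chloride and 1.04, 1.68 and 1.49 with propionate, from an estimated 36.2 to 72.2 reads. Its lowest and highest libraries were both propionate libraries. For Fabp7 the log2 difference was 0.0097 (SE 0.17, 95% interval -0.39 to 0.41, adjusted p = 0.996). Any difference inside that interval remains compatible with these libraries, in which the read numbers of Fabp7 were low.

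In order of mean level the genes ran Vim, Nes, Cd44, Sox2, Bmi1, Msi1, Fabp7, Gfap, Prom1 and Sox9. Sox2 and Bmi1 overlapped over the 6 libraries, as did Fabp7 and Gfap, and Prom1 and Sox9 were both listed at 0 in 3 libraries or more. Between all other neighbours in this order the 6 libraries did not overlap. Among the genes tested, Nes stood at the 97.9th percentile, Cd44 at the 93.7th, Sox2 at the 83.1st, Bmi1 at the 81.3rd, Msi1 at the 28.5th and Fabp7 at the 6.57th. By sign, 6 of the 7 members tested were higher after propionate, with a median log2 difference of 0.04, beside 51.7% of all genes and a median of 0.0054. With TPM as deposited, Sox2, Nes, Cd44, Fabp7 and Bmi1 changed sign (-0.06, -0.06, -0.02, -0.05 and -0.09), so these signs do not give a direction.

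**Figure D2:**
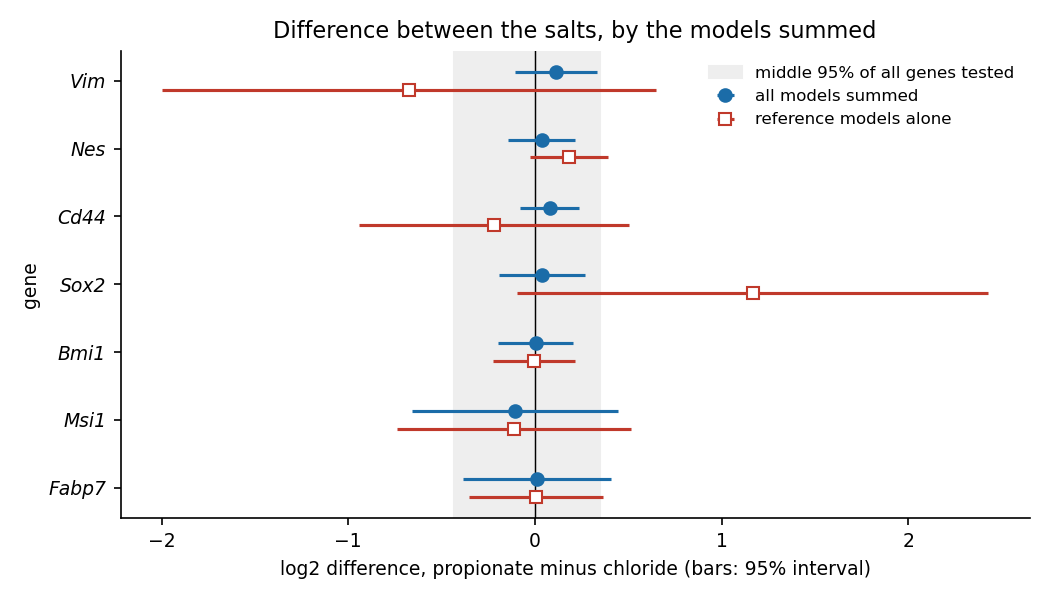
Log2 difference between propionate and chloride for the 7 genes tested, with 95% intervals, from all models summed (filled circles) and from reference models alone (open squares), over the range of the middle 95% of all genes tested (grey, -0.43 to 0.35). All 14 intervals include 0, and those of Sox2, Vim and Cd44 widen most when assembled models are left out. Those of Nes, Msi1 and Bmi1 widen less.

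For Sox2, Vim, Nes and Cd44, the genes with assembled models, the sum per gene varied less between libraries than its division over transcript models. The files held 71 models of the 10 genes, 11 of them assembled, and 27 were tested. Limma called none of the 27 at an adjusted p under 0.05, beside 0.0364% of all transcripts. At an unadjusted p under 0.05 there were 3, beside 4.62% of all transcripts, and 3 of the 27 did not overlap between the salts, beside 12.3%. The 12.3% was taken with the factors over genes. With scale factors taken over transcripts, as in this fit, 2 of the 27 did not overlap, and the share of all transcripts was not computed. Refitted with the factors taken over genes, an alternative added after the data were seen, limma again called 0 of 27, with a lowest adjusted p of 0.862.

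Sox2 has 1 coding exon, and its reads were divided between the reference model ENSMUST00000099151, which is that exon, and the assembled model MSTRG.13603.1, made of 2 exons with 34 bases between them. The assembled model begins 100 bases before the RefSeq start, directly after the promoter stretch shown above, and the reference model begins 410 bases after that start. The reference model took 18.8, 20.05 and 16.1% of the Sox2 sum with chloride, 19.5% in propionate 1, and 65.5% and 58.1% in propionate 4 and 5. Propionate 4 and 5 thus stood apart from the other 4 libraries, and propionate 1 lay inside the chloride range.

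In TPM, the reference model of Sox2 was at 10.7, 10.97 and 7.70 with chloride and 9.53, 39.2 and 32.3 with propionate, a log2 difference of 1.21 (SE 0.54, 95% interval -0.13 to 2.56). The assembled model was at 46.5, 43.8 and 40.3 with chloride and 39.4, 20.6 and 23.3 with propionate, a log2 difference of -0.64 (SE 0.25, 95% interval -1.28 to -0.0073). Both had an adjusted p of 0.845 in limma. On these values the salts overlapped for the reference model but not for the assembled one, whose margin was narrow: chloride 3 was at 40.3 and propionate 1 at 39.4. With the scale factors of the transcript fit, which were taken over transcripts and not genes, the assembled model overlapped too. Without chloride 3 and propionate 1 the differences were 1.65 and -0.99, with adjusted p-values of 0.205 and 0.303. Propionate 4 and 5 were also the deepest libraries, and the part of depth in this division was not tested.

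Vim was divided mainly over 4 models whose shares swung between libraries of the same salt. MSTRG.11558.3, which adds a first exon before the RefSeq start, was at 2524, 1372 and 0 scaled TPM with chloride and 2740.4, 382 and 2279 with propionate. MSTRG.11558.1, which begins 14568 bases upstream of the RefSeq start, was at 12.3, 259 and 1904 with chloride and 0.586, 2347 and 3.02 with propionate. Its first exon had a coverage of only 1.52 to 4.71 reads per base, and its second 1.46 to 10.4. In the first exon, coverage did not follow the TPM of the model: it was 2.57 in chloride 3, 3.82 in propionate 4 and 4.71 in propionate 5. In each library one of these assembled models held most of their sum, and which one it was differed within both salts.

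The reference model ENSMUST00000028062 was at 594, 1097 and 408 with chloride and 629.9, 209 and 829 with propionate, and ENSMUST00000193675 was at 0, 279.9 and 395 with chloride and 0, 43.1 and 176.5 with propionate. The added exon of MSTRG.11558.3 had a coverage of 0 to 10.8 reads per base, whereas its next exon had 1223 to 8168 in the 5 libraries that used the model. The bulk of the reads given to that model did not lie in the exon that sets it apart. Over all models, the sum stayed within 2764 to 3402 TPM.

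Vim also had a retained intron model, ENSMUST00000191615, of 2926 bases, that was lower after propionate without overlap. It was at 25.1, 27.0 and 30.5 TPM with chloride and 22.2, 20.4 and 20.5 with propionate, a log2 difference of -0.33 (SE 0.11, adjusted p = 0.845). This difference did not pass the test. The 2 other retained intron models, ENSMUST00000155605 and ENSMUST00000148248, had mean levels of 14.5 and 1.83 TPM, and their salts overlapped.

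**Figure D3:**
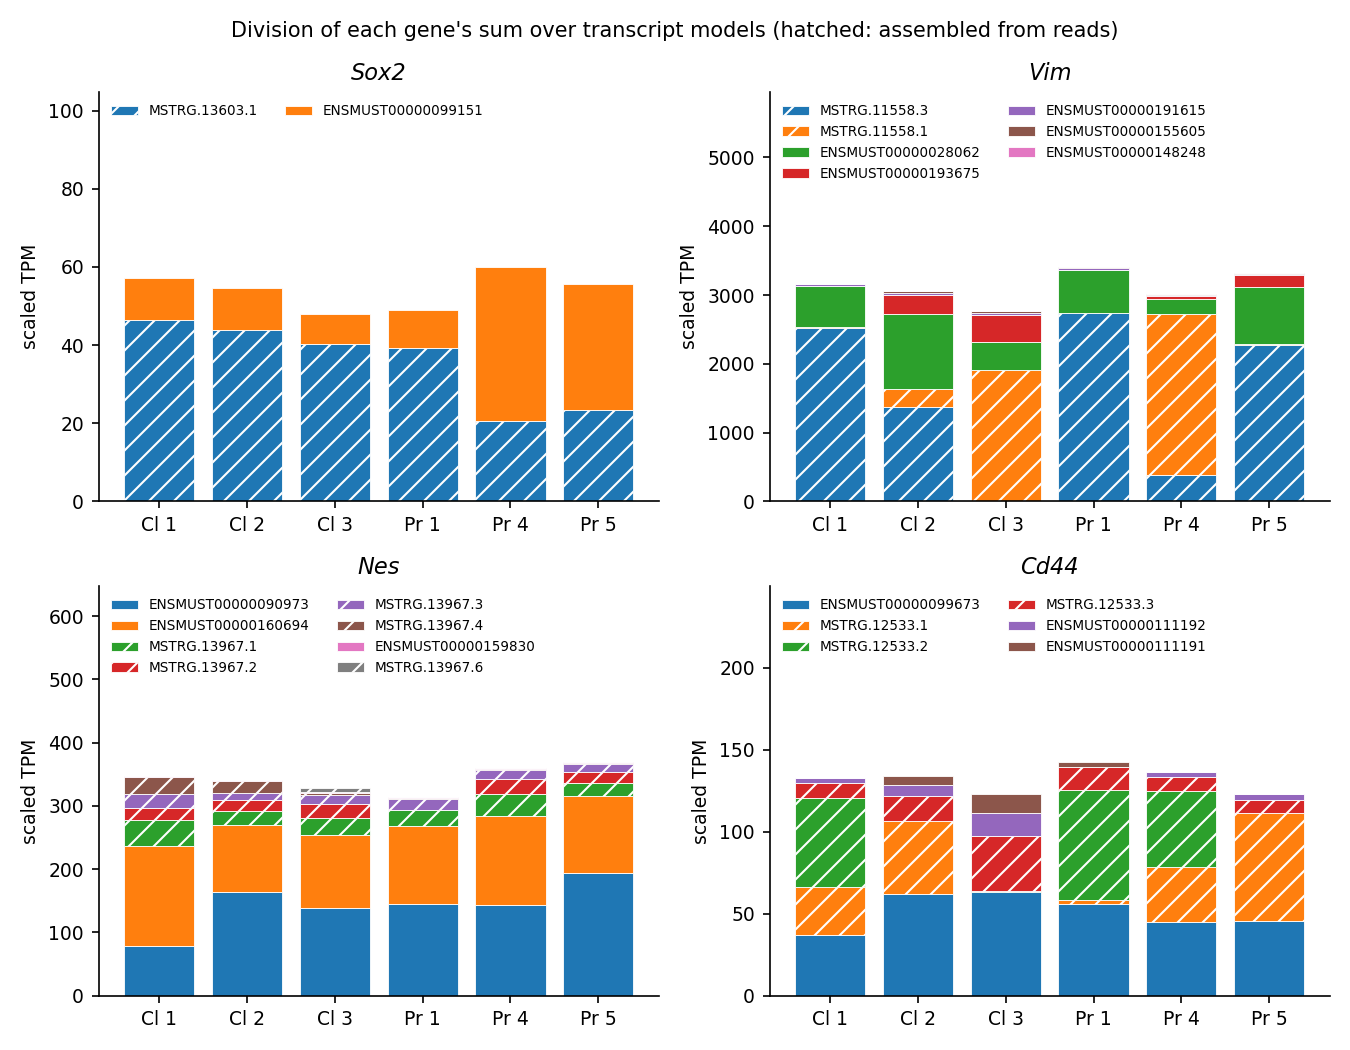
Scaled TPM of each transcript model that averaged 1 TPM or more, stacked per library, for Sox2, Vim, Nes and Cd44 (Cl, chloride; Pr, propionate; hatched, assembled from reads). The heights of the bars are alike across libraries, while the division inside them shifts, as for Sox2 in propionate 4 and 5.

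The models of Nes differ in how they treat units 1 and 2 of the repeated units shown above. Unit 1 shares 130 of 132 bases with unit 2, and unit 3 shares 101 with it. Counting positions from 1 at the 5′ end of a unit, and with the base of unit 2 first, unit 1 differs by A30G and A120C. Models that keep all units (2), skip 132 bases (4) or skip 264 bases (1) cover the gene to its end. Skips of 132 bases begin at different places in different models, and with units this alike a read cannot always tell them apart.

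Models with no skip held 30.5, 53.8 and 43.3% of these Nes TPM with chloride and 46.6, 40.4 and 53.1% with propionate. A skip of 132 bases held 64.0, 41.1 and 50.2% with chloride and 53.4, 53.0 and 42.4% with propionate. The share with 264 bases skipped was 5.54, 5.06 and 6.55% with chloride and 0.0378, 6.61 and 4.55% with propionate. Long and short forms were thus at like levels, the ranges of the salts overlapped in each class, and the low share of the shortest form belonged to propionate 1.

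One Nes model was lower after propionate without overlap. MSTRG.13967.4, which begins 881 bases upstream of the RefSeq start and runs on past the end of the first exon, was at 25.8, 18.7 and 2.83 TPM with chloride and 1.17, 1.68 and 1.82 with propionate. Chloride 3 lay close to the propionate values and far from the other chloride libraries. The log2 difference was -2.28 (SE 0.76, adjusted p = 0.845). Without chloride 3 it was -3.15, with an adjusted p of 0.0774 in limma, the lowest of any member model under the alternatives run. That fit leaves out the chloride library most like propionate. Without chloride 1 the difference was -1.73 and without chloride 2 it was -1.96, with adjusted p-values of 0.806 and 0.862.

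Cd44 transcripts can include up to 10 variable cassette exons between exon 5 and exon 16, and many epithelial cells include them. In these libraries the coverage of the cassette exons in spliced models had a median of 0, 0.0802 and 0% with chloride and of 0.00314, 0.525 and 0.874% with propionate, as a percentage of the mean coverage of exons 4 and 16. The highest cassette exon reached 6.71, 3.56 and 7.11% with chloride and 2.75, 4.28 and 5.28% with propionate. Reads given to models with a longer exon over these positions are left out. The percentages can thus be too low, and they depend on how reads were divided over models. Exon 15 (chr2:102831330-102831536) was the highest in 5 libraries and exon 13 (chr2:102834234-102834335) in propionate 1. By coverage per exon, cassette exons were thus scarce in both salts beside the constant exons that the junction shown above joins.

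The division of Cd44 TPM over models gave another picture, in which 2 assembled models with inner exons took a large part of it. MSTRG.12533.2, which holds cassette exons 12 to 15, was at 54.2, 0 and 0.633 TPM with chloride and 66.9, 45.9 and 0 with propionate, or up to 46.1% of the gene. In the 3 libraries where it was above 1 TPM, the mean coverage of those 4 exons was 12.2% (chloride 1), 5.60% (propionate 1) and 10.7% (propionate 4) of that of exons 4 and 16 within the same model. MSTRG.12533.1, with 1 inner exon that spans cassette exons 6 to 8 and their introns (chr2:102845285-102849387), was at 29.0, 44.7 and 0 with chloride and 2.17, 33.8 and 65.8 with propionate, or up to 51.2% of the gene. That exon had 4.07 to 9.34% of the coverage of exons 4 and 16 within the model in the 5 libraries that used it. The TPM of both models was thus high in libraries where the coverage of their inner exons was low beside that of their constant exons.

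Beside ENSMUST00000099673, 2 reference models of Cd44 averaged 1 TPM or more. These were ENSMUST00000111192 and ENSMUST00000111191, with mean levels of 5.11 and 3.26 TPM, and their salts overlapped. Reference models of Cd44 below that mean were not tested, and their salts are not compared here.

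Some Cd44 reads were given to a model with an exon that spans introns. The assembled model MSTRG.12533.3 has an exon of 15424 bases that runs from exon 5 through exon 12 and the introns between, and its coverage was 2.38, 2.69 and 3.78% of that of exons 4 and 16 with chloride and 2.29, 2.02 and 1.999% with propionate. These percentages were lower in each propionate library than in each chloride library, a difference that was not tested. The long exon contains constant exon 5, so reads of exon 5 enter its coverage beside intronic ones. In models with exactly exon 5, that exon was at 69.4, 59.3 and 38.5% with chloride and 59.4, 70.4 and 75.6% with propionate. The part of exon 5 reads in the order of the salts was not tested. In TPM, MSTRG.12533.3 was at 9.54, 15.2 and 33.5 with chloride and 14.4, 8.88 and 7.96 with propionate, and there the salts overlapped. Its log2 difference was -0.67 (SE 0.47, adjusted p = 0.845 in limma). The main standard model, ENSMUST00000099673, was at 37.2, 62.0 and 63.4 with chloride and 56.2, 44.8 and 45.4 with propionate (log2 difference -0.08, SE 0.23).

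**Figure D4:**
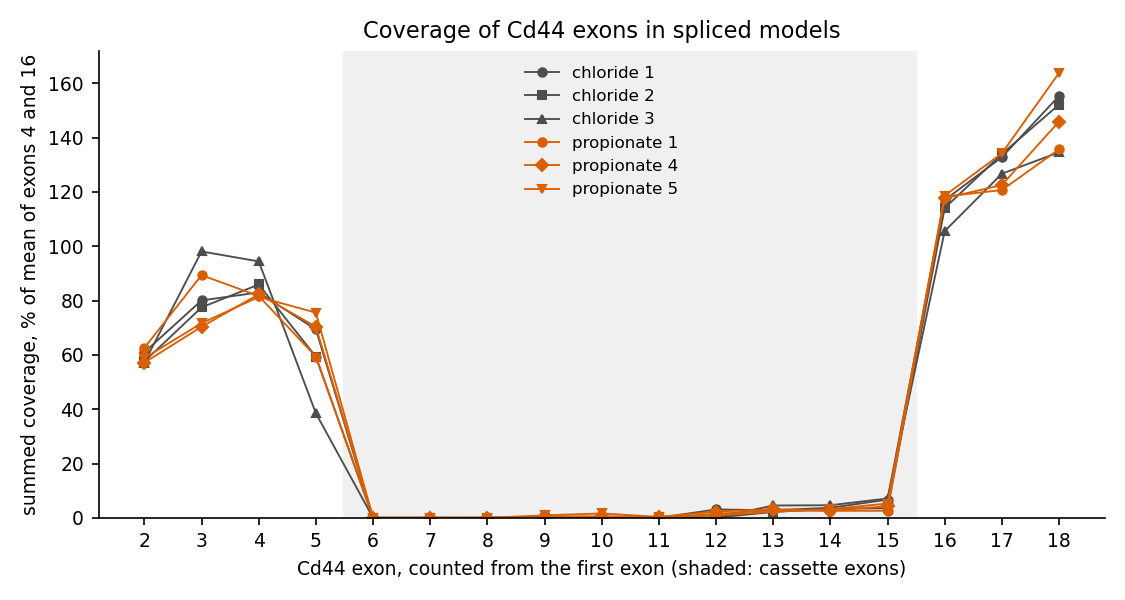
Coverage of Cd44 exons 2 to 18, summed over models with exactly that exon, as a percentage of the mean of exons 4 and 16, with 1 line per library. The cassette exons (shaded) stay at or under 7.11% in all 6 libraries, and the constant exons around them lie far above.

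Left to reference models alone, the members would have read otherwise. The Sox2 log2 difference would have been 1.17 (95% interval -0.09 to 2.43), that of Vim -0.67 (-1.998 to 0.65), that of Cd44 -0.22 (-0.94 to 0.50) and that of Nes 0.18 (-0.03 to 0.39). None was called (adjusted p = 0.941 for Sox2, Vim and Nes and 0.946 for Cd44). The other 6 genes have no assembled model.

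RefSeq promoter windows, from 250 bases before to 50 after the start, were at hand for Sox2, Nes, Vim, Gfap, Prom1, Cd44, Fabp7 and Bmi1. TATAAA was found on either strand in Vim alone of the 8, and in 13.6% of all 32851 windows. CCAAT was in the windows of Vim, Sox2, Fabp7 and 1 of 2 of Prom1, and in 37.4% of all windows. GGGCGG was in those of Bmi1, Cd44, Sox2, Nes and 1 of Prom1, and in 35.7% of all. TGANTCA was in both Prom1 windows, and in 7.81% of all.

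The number of CpG dinucleotides in these windows ran from 3 for Gfap and 6 for Cd44 and Fabp7 to 11 for Vim, 18 for Nes, 23 for Bmi1 and 27 for Sox2, with a median of 7 over all windows. The Prom1 windows had 10 and 4, with RNA listed at or near 0. Sox2 and Bmi1, with the most CpG, stood at the 83.1st and 81.3rd percentile of the genes tested, and Vim, with fewer, was the highest member. These matches describe the letters of the windows only.

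Sox2 lies inside an intron of the long noncoding gene Sox2ot on the same strand, and Bmi1 lies next to Commd3, whose transcripts can run into it. Sox2ot was at 1.23 ± 0.506 scaled TPM with chloride and 0.881 ± 0.197 with propionate (log2 difference -0.23, SE 0.22). Its propionate mean was under 1 TPM, so Sox2ot passed the filter through its chloride libraries, which favoured a lower value after propionate. Commd3 was at 64.8 ± 2.82 and 66.2 ± 4.41 (0.03, SE 0.07). The salts overlapped for each, and neither was called.

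Other genes of the same pathways were read from the same fit. Of 34 regulators of neural stem cells and radial glia, 22 were tested and limma called 0, with 12 higher and 10 lower by sign, a median of 0.0035 and 0 at an unadjusted p under 0.05. Id3, an inhibitor of basic helix-loop-helix factors, was at 56.1, 53.6 and 48.3 scaled TPM with chloride and 56.2, 56.6 and 90.5 with propionate. The salts did not overlap by a narrow margin, and propionate 5 alone stood apart. Pax6 and Pou3f2, transcription factors of progenitors, were lower in propionate without overlap. Pou3f2, named for this lack of overlap, was at 1.28 ± 0.220 and 1.09 ± 0.0275. Pax6 was at 9.03 ± 1.01 and 7.56 ± 0.364 (log2 difference -0.22, SE 0.10, adjusted p = 0.915), and Nfia, a glial factor, at 6.97 ± 0.571 and 8.56 ± 1.73. The highest levels were those of Itga6, an integrin subunit, at 235.3 ± 6.60 and 235.0 ± 11.1, and of Id1, at 108 ± 8.04 and 115 ± 2.49.

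Of 20 astrocyte markers, 11 were tested and 0 called, with 7 higher and 4 lower by sign and a median of 0.05. Glutamine synthetase (Glul) was at 87.6 ± 5.87 and 93.6 ± 0.956, and Apoe, a lipid carrier, at 11.7 ± 0.821 and 10.2 ± 1.84. Fgfr3, a growth factor receptor, was highest at 159 ± 4.67 and 169.8 ± 15.8, followed by S100b, a calcium-binding protein, at 99.7 ± 6.38 and 101 ± 0.924. Clusterin (Clu), a secreted chaperone, was the 1 marker without overlap, at 87.9 ± 0.759 and 92.4 ± 2.41. Aqp4, Slc1a2, Mlc1 and Hepacam were listed at 0 in all 6 libraries. The low Gfap thus stood beside astrocyte genes of both kinds, present and absent.

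Among 18 other filament and linker genes, 10 were tested and 0 called, with 4 higher and 6 lower by sign and a median of -0.0091. Desmin (Des) did not overlap and was higher in propionate, at 0.919 ± 0.261 and 1.48 ± 0.0711 (log2 difference 0.38, SE 0.17, adjusted p = 0.915). With a chloride mean under 1 TPM, Des passed the filter only through its propionate libraries, so the filter favoured this direction. The linkers Dst and Macf1 were lower without overlap, Dst at 77.4 ± 4.76 and 70.1 ± 2.42 (log2 difference -0.14, SE 0.06, adjusted p = 0.915) and Macf1 at 130.1 ± 5.06 and 119 ± 5.06. Plectin (Plec), which ties vimentin to other parts of the cytoskeleton, was at 263 ± 14.5 and 258 ± 38.1, and lamin A (Lmna), higher in propionate without overlap, at 251.5 ± 8.97 and 263.5 ± 1.29.

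All 19 genes of Polycomb repressive complex 1 beside Bmi1 were tested and 0 called, with 10 higher and 9 lower by sign and a median of 0.00056. Phc3 was at 10.4 ± 0.635 and 9.13 ± 0.362 and Cbx7 at 5.56 ± 0.309 and 4.68 ± 0.336, both lower without overlap and both with an adjusted p of 0.915. The highest were Phc2, higher in propionate without overlap, at 80.8 ± 2.90 and 86.9 ± 4.42, and Yaf2, at 53.4 ± 2.495 and 53.1 ± 2.53.

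Of 15 hyaluronan enzymes and partners of CD44, 11 were tested and 0 called, with 5 higher and 6 lower by sign and a median of -0.01. Spp1, the ligand osteopontin, was at 8.30 ± 1.15 and 9.84 ± 2.16, and Cd74, a partner at the membrane, at 1.13 ± 0.240 and 0.886 ± 0.0968. With a propionate mean under 1 TPM, Cd74 passed the filter only through its chloride libraries, so the filter favoured a lower value after propionate. Moesin (Msn), which links CD44 to actin, was highest at 205 ± 22.4 and 202.5 ± 11.99, followed by the hyaluronan receptor Hmmr at 120.2 ± 12.7 and 128 ± 14.8. Fabp3 and Fabp5, the other fatty acid binding proteins tested, were at 4.01 ± 1.31 and 5.57 ± 0.828 and at 123 ± 8.88 and 136 ± 10.4, with 0 of 2 called. Without overlap were 3 of 22 stem cell regulators, 1 of 11 astrocyte markers, 4 of 10 filament genes, 3 of 19 Polycomb genes, 0 of 11 hyaluronan genes and 0 of 2 fatty acid binding proteins, beside 11.7% of all genes. The filament count includes Des, which passed the filter only through its propionate libraries.

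**Figure D5:**
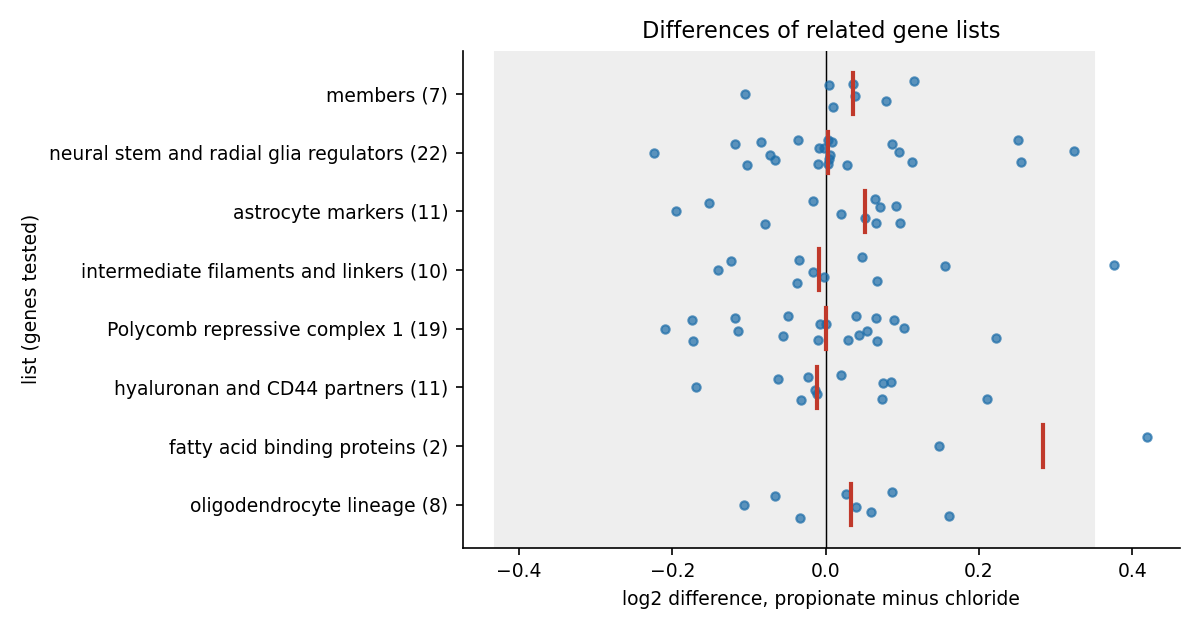
Log2 difference of each tested gene (points) and the median (red bar) for the members and 7 lists of related or marker genes, over the range of the middle 95% of all genes tested (grey). Medians lie between -0.01 and 0.05 in all lists but that of the fatty acid binding proteins, which has 2 genes.

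Several members sat beside a relative at a different level, and these relatives were chosen after their values were seen. Sox10, a factor of the oligodendrocyte lineage, was at 97.8 ± 7.92 and 101 ± 13.4 scaled TPM, where Sox9 was listed at or near 0 and Sox8 was at 0.633 ± 0.206 and 0.372 ± 0.0815. Msi2 was at 36.2 ± 1.11 and 36.4 ± 1.83, where Msi1 was at 4.51 ± 2.03 and 3.92 ± 0.178. The filament gene Prph was at 41.3 ± 2.71 and 40.3 ± 2.14, well above Gfap. Fabp5 lay likewise well above Fabp7.

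Markers of other cell types were summed to place the line. The 8 oligodendrocyte lineage genes summed to 522 to 573 TPM with chloride and 530.3 to 596 with propionate, and all 8 were tested. Of 6 neuronal markers only Tubb3 and Map2 were tested, with sums of 115.9 to 118.7 and 112 to 124.5, and Rbfox3, Dcx and Snap25 were listed at 0. Microglial markers summed to 4.72 to 6.33 and 5.14 to 6.39 with Itgam and P2ry12 at 0, endothelial ones to at most 0.327 with Kdr at 0, and fibroblast ones to 87.0 to 99.7 and 76.5 to 100.4, of which Col1a1 made nearly all. The sums of the salts overlapped for every list.

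By the rule set for likeness, the 3 protein-coding genes whose log2 levels ran most like those of a member over the 6 libraries were named, as a description without a test. For Sox2 they were Chmp3, Glod4 and Alg14, each with a Pearson r of 0.99. For Vim they were Ormdl2, Pgm1 and Atp5e, with r of 0.99, and for Cd44 Toe1, Pip5k1a and N4bp1, also with r of 0.99. Over all protein-coding genes tested, r was above 0.99 for 4 genes with Sox2, for 2 with Vim and for 0 with Cd44. The 6 points share libraries, depth and processing.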

How the data were processed

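Per the labels' protocols, RNA came from an RNeasy kit and libraries from a stranded TruSeq total RNA kit. Tools listed in the submitters' processing notes are bcl2fastq, fastp, HISAT2 and StringTie, with mm10 as the build. Per the file headers, the authors ran StringTie 2.1.1 on each library with 1 common set of models, and deposited coverage, FPKM and TPM per transcript. No counts were given, and the header's command names no strand option, so overlapping or antisense genes may share reads.

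TPM were summed per gene name. Assembled models without a gene name joined the reference gene of their locus with the largest exonic overlap on the same strand. Genes with no transcript of 200 nt or more were dropped, and libraries were scaled by the median ratio to their geometric mean (factors 0.966 to 1.09). Read numbers were estimated from coverage, length and a read length of 101 nt. Tests used limma 3.58.1 in R 4.3.3 (lmFit, eBayes with a variance trend, two-sided) on log2(TPM + 1) with Benjamini-Hochberg adjustment and a threshold of 0.05, over 15506 genes or 35755 transcripts. The fit was tested on simulated data. Figures were drawn with matplotlib 3.10.9.

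The members and lists were chosen with earlier results of these data known. Named were the 10 members, their models averaging 1 TPM or more (those of Nes partly by class), and from each related list the 2 tested genes with the smallest p and the 2 with the highest level, together with Sox2ot and Commd3. Id3, Pou3f2, Clu and Macf1 were added after their values were seen, because their salts did not overlap. For Sox2, Vim and Cd44, the 3 genes most alike over the libraries were named too. Alternatives changed the pseudocount, scaling, filter, summing, weights, tool, a term for chloride 3 and propionate 1, and the libraries used. Transcripts were scaled for their fit by factors taken over transcripts (0.964 to 1.10), and are printed with those taken over genes. A listed 0 can be a failed estimate.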

Additional observations from a re-analysis of the deposited data

How the results depend on the processing

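Over the 17 alternatives, 0 members and 0 related genes were called, and 0 member transcripts in the 10 run for transcripts. The count over all genes, 1, was 0 with no filter on low values, 0 with limma voom, 2 with a mean of at least 5 TPM, 2 with library weights, 2 with sums per assembled locus and 6 without chloride 3 and propionate 1. Leaving out 1 library at a time gave 1 to 4, with 4 without propionate 1. Of 117 member differences under alternatives, 88 kept their sign and 29 did not. The 88 include settings that leave a difference as it is by construction. These are the changed filters on low values and the term for chloride 3 and propionate 1. With TPM as deposited the log2 difference was -0.058 for Sox2, -0.062 for Nes, -0.018 for Cd44, -0.046 for Fabp7 and -0.091 for Bmi1; with quantile normalization it was -0.048 for Nes and -0.030 for Bmi1. Limma voom gave -0.049 for Sox2, -0.029 for Cd44, 0.22 for Msi1 and -0.013 for Bmi1. Library weights gave -0.018 for Cd44 and 0.073 for Msi1, and without chloride 3 and propionate 1 they were -0.0023 and 0.21. Reference transcripts alone gave -0.67 for Vim, -0.22 for Cd44 and -0.0052 for Bmi1. Leaving out 1 library at a time gave -0.037 to 0.12 for Sox2, -0.0085 to 0.11 for Nes, -0.073 to 0.12 for Fabp7, -0.25 to 0.18 for Msi1 and -0.055 to 0.092 for Bmi1. For these changes of sign the cause was not tested. A term for chloride 3 and propionate 1, the libraries with fewer covered models, could not change the member differences, because each salt holds 1 such library. With that term 1 gene was called. No paired analysis was possible because the salts share only the replicate number 1. Depth limits Gfap, Fabp7, Prom1 and Sox9, with at most an estimated 72.2 reads in a library.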
